A study of Mus musculus with 24 samples.

Results

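Solute carriers are the membrane proteins whose gene symbols begin with Slc and a family number. The members described here are the genes whose symbol in the deposited signal table has that form and whose signal reached 80 intensity units or more on at least 3 of the 24 arrays. The rule leaves out 8 carriers by name: the glutamate transporter Slc1a3, the sodium bicarbonate cotransporter Slc4a4, the amino acid exchanger subunits Slc3a2, Slc7a5 and Slc7a11, and the vesicular transporters Slc17a6, Slc17a7 and Slc32a1. It left 133 genes (152 probes) among 18734 genes with values, out of 264 solute carrier genes that have values once those 8 are set aside. The signal reached on at least 3 arrays was 81.6 for Slc41a1, 82.5 for Slc22a21 and 84.0 for Slc7a1, the members closest to the threshold, and 79.4 for Slc43a3 and 78.5 for Slc12a7, the closest genes outside it. A further 31 genes above the threshold carry an Slc symbol today but an older one in the table, and they are not members. Among the members, 4 symbols belong to proteins that are named after a carrier without being one: the scaffold proteins Slc9a3r1 and Slc9a3r2, and Slc4a1ap and Slc7a6os.

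The arrays came from primary cortical neurons of Swiss Albino mouse fetuses taken on gestation day 15 to 16. On day 5 in culture the cells received lactacystin, a proteasome inhibitor prepared in dimethyl sulfoxide, either 1 µM (harvested after 5, 8, 15 or 24 h) or 0.1 µM (harvested after 15 or 24 h). Each of these 6 treated groups has 3 arrays, and untreated cultures have 6. The labels give neither a vehicle nor a collection time for the untreated cultures, so solvent and time in culture cannot be told apart from the drug in any comparison with them. Nor do they say if replicate arrays stand for separate cultures, and the p-values reflect just the spread among the arrays at hand.

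Solute carriers move ions, nutrients, transmitters and metals across the plasma membrane and across the membranes of mitochondria, the Golgi and vesicles, mostly driven by ion gradients or by exchange of one solute for another. In the brain they clear transmitters from the synapse, set the chloride and calcium gradients that neurons use, pass glucose and lactate to neurons and glutamine between glia and neurons, and buffer zinc and iron. Transcription of several amino acid carriers is known to rise when amino acids run short, through the factor ATF4. Many other carriers are concentrated in astrocytes, oligodendrocytes or microglia, so their RNA in a mixed culture also reads out which cells are present.

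The arrays had median signals of 52.2 to 81.0 intensity units and detected 11275 to 12265 probes each. A treated group always sat at the same slide position, and the effect of position cannot be told apart from that of treatment. All 133 members passed the detection filter and were tested within a fit of 10894 genes; 122 were detected on all 6 untreated arrays and 109 on all 24 arrays. On the log2 scale the root mean square difference was 0.208 to 0.309 within treated groups and 0.287 to 0.544 between untreated arrays. Untreated arrays 5 and 6, which share a slide, stood apart from the rest for several members (for Slc40a1 and Slc2a1 they were the highest untreated arrays), so the counts below are also given without them. Neuronal, astrocyte and oligodendrocyte lineage markers were all expressed in the untreated cultures, and in such bulk RNA fewer cells of a type and less RNA per cell cannot be told apart.

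Levels below are log2 intensities of the brightest probe of a gene, and log2 changes are given with their standard error from limma. "Higher" and "lower" are used of members with a Benjamini-Hochberg adjusted p under 0.05 over the 10894 genes of that comparison. With 1 µM lactacystin 15 members differed from untreated at 5 h (9 higher, 6 lower), where 10.3% of all genes tested passed the same threshold (6.19% higher, 4.08% lower). At 8 h 64 members differed (27 higher, 37 lower; 39.9% of all genes, 20.1% higher and 19.8% lower), at 15 h 86 (43 higher, 43 lower; 54.9% of all genes, 27.2% higher and 27.7% lower) and at 24 h 91 (39 higher, 52 lower; 57.4% of all genes, 26.7% higher and 30.7% lower). These 4 comparisons share the same untreated arrays. The members' own shares were 11.3%, 48.1%, 64.7% and 68.4%. The median change of the 133 members at 24 h was -0.12, against -0.047 for all genes, and the median size of change regardless of sign was 0.56 against 0.38. Members had to reach the signal threshold on these same arrays, a rule not applied to the other genes tested. A gene could meet it through its treated arrays alone. Shares and medians of members and of all genes, here and below, thus come from sets selected differently. Whether members differ from other genes of like signal was not tested.

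Without untreated arrays 5 and 6 the counts were 35, 72, 92 and 95. The split by direction moved with the scaling of the arrays. At 5 h it was 6 higher and 8 lower with median centring and 7 higher and 10 lower in the authors' ratio table. At 8 h it was 28 higher and 19 lower with median centring and 28 higher and 24 lower in the authors' table. At 24 h it was 27 higher and 55 lower with median centring and 29 higher and 55 lower in the authors' table. The 5 h count was 26 with slide as a block, 37 with array weights and 2 when only the 2 groups compared were fitted. Shares of all genes under the alternatives are not given, here or below. Whether a shift in these counts is particular to the members was not tested.

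At least 2-fold changes were reached by 15 called members upward and 17 downward at 15 or 24 h of 1 µM. The share of all genes that were called with a change of that size is not given, so these counts are no result particular to the members. The plot of their changes by group shows most of them near 0 at 0.1 µM. At 15 h of 0.1 µM, though, Slc39a4, Slc2a1, Slc11a1 (brightest probe), Slc19a2 and Slc12a8 were higher and Slc25a22 was lower.

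**Figure D1:**
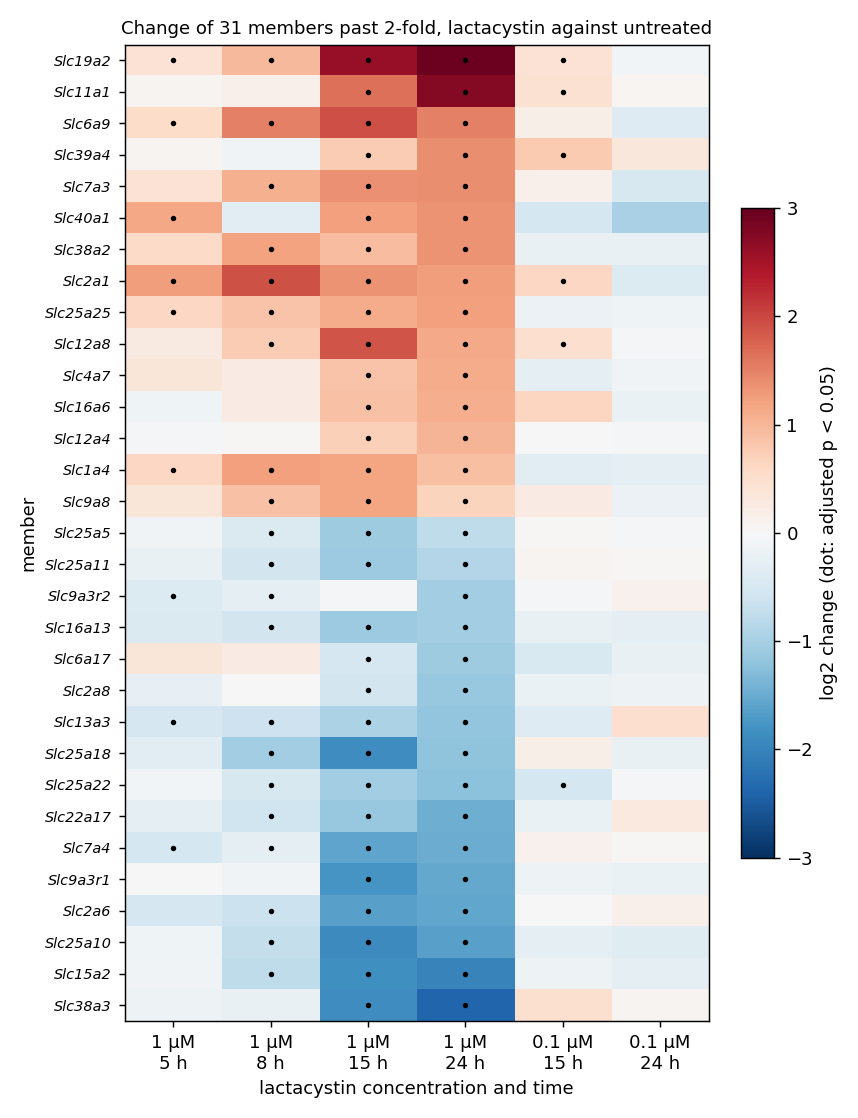
Log2 change against untreated (colour scale) of 31 of the members that were called with an at least 2-fold change at 15 or 24 h of 1 µM lactacystin, in each of the 6 treated groups (columns), with a dot where the limma adjusted p was under 0.05. Slc19a2 heads the list with 2.94 at 24 h and Slc38a3 ends it with -2.38, while at 0.1 µM for 24 h none of the 31 carries a dot.

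The largest rise was that of Slc19a2, a thiamine (vitamin B1) transporter of the plasma membrane. Its log2 intensity was 11.19, 11.06 and 10.96 after 24 h of 1 µM and 10.84, 10.74 and 10.66 after 15 h, against 7.96 (lowest), 8.15 (median) and 8.25 (highest) in untreated cultures. No array of these treated groups overlapped the untreated ones. The change was 0.43 ± 0.09 at 5 h, 0.98 ± 0.09 at 8 h, 2.62 ± 0.09 at 15 h and 2.94 ± 0.09 at 24 h (adjusted p = 0.00278, 1.65e-08, 6.65e-16 and 6.39e-17). Within the 3 slides the 24 h change was 2.97, 2.86 and 2.99. After 0.1 µM it was 0.44 ± 0.09 at 15 h (adjusted p = 0.0014) and -0.09 ± 0.09 at 24 h (adjusted p = 0.599), with 24 h levels of 8.18, 8.03 and 7.92.

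The carriers of vitamins and organic ions were split. Of the 7 tested, 3 were higher, Slc19a2 among them, and 1 was lower at 24 h of 1 µM. Slc22a5 did not pass by its tested probe (-0.04), while a second probe, detected on all 24 arrays, gave 0.68 (limma adjusted p = 0.000506). The vitamin C transporter Slc23a2 was higher by 0.71 ± 0.26 with overlapping groups, a call lost without any 1 of 4 arrays (untreated 3 or 4, or treated replicate 1 or 2, where the change was 0.47 to 0.72). Slc22a21, a carnitine transporter in the mouse, was higher by 0.71 ± 0.13. Slc22a17, a receptor for the iron-binding protein lipocalin-2, went the other way. It stood at 8.33, 8.33 and 8.20 after 24 h of 1 µM, at 9.94, 10.10 and 10.08 after 24 h of 0.1 µM, and at 9.38 (lowest), 9.80 (median) and 10.004 (highest) untreated. The 1 µM arrays lay below all of these, with a change of -1.47 ± 0.11 against untreated (adjusted p = 2.4e-10) that had begun at 8 h (-0.59 ± 0.11).

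Among the 11 amino acid carriers 4 were higher and 6 lower at 24 h of 1 µM, and the 4 that were higher had all been higher at 8 h except the cationic amino acid transporter Slc7a1 (0.29 ± 0.16 at 8 h, 0.86 ± 0.16 at 24 h). Slc1a4, which carries serine, alanine and cysteine, reached 12.72, 12.62 and 12.60 after 8 h of 1 µM, against 11.09 (lowest), 11.32 (median) and 11.80 (highest) untreated. It rose by 0.63 ± 0.13 at 5 h, 1.23 ± 0.13 at 8 h, 1.19 ± 0.13 at 15 h and 0.90 ± 0.13 at 24 h (adjusted p = 0.00298, 1.42e-07, 6.49e-08 and 2.97e-06), with no overlap at any of these times. Slc38a2, a sodium-coupled carrier of small neutral amino acids known for its induction by amino acid shortage, was at 10.72, 10.96 and 10.86 after 24 h of 1 µM, 9.33, 9.19 and 9.34 after 24 h of 0.1 µM, and 9.05 (lowest), 9.50 (median) and 10.12 (highest) untreated. Its change was 1.21 ± 0.18 at 8 h, 0.93 ± 0.18 at 15 h and 1.34 ± 0.18 at 24 h, and 0.57 ± 0.18 at 5 h missed the threshold (adjusted p = 0.0514). The cationic amino acid carrier Slc7a3 was at 11.67, 11.56 and 11.42 after 24 h of 1 µM, 9.71, 9.72 and 9.64 after 24 h of 0.1 µM, and 9.67 (lowest), 10.13 (median) and 10.63 (highest) untreated, a change of 1.38 ± 0.16 at 1 µM (adjusted p = 1.24e-07). For both Slc38a2 and Slc7a3 a second, dimmer probe moved less (0.22 each at 24 h, detected on 5 and 3 of the 24 arrays).

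At 8 h of 1 µM the higher amino acid carriers were Slc1a4, Slc38a2, Slc7a3 and Slc36a4. Of these, Slc1a4 and Slc36a4 had been higher at 5 h. The promoters of 3 members are given beside their RNA levels: Slc1a4 and Slc38a2, picked from these amino acid carriers, and Slc19a2 as the largest rise. Each is the RefSeq window of 300 bases (250 before and 50 after the gene's start, GRCm38.p6), on chr11:20332664-20332963 (minus strand) for Slc1a4, chr15:96699679-96699978 (minus strand) for Slc38a2 and chr1:164248796-164249095 (plus strand) for Slc19a2, written 5′ to 3′ along the gene. Capitals mark matches on either strand to 1 of 3 letter patterns: TGATGNAA, of the amino acid response element that ATF4 binds (in Slc1a4, read on the opposite strand), TGACNNNGC, of the antioxidant response element (in Slc38a2), and GAANNTTC, of the heat shock element (in neither).
Slc1a4: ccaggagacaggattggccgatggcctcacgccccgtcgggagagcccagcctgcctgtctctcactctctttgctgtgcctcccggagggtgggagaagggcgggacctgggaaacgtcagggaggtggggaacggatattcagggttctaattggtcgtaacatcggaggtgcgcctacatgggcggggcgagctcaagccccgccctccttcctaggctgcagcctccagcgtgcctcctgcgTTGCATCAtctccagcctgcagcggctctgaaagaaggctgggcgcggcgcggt
Slc38a2: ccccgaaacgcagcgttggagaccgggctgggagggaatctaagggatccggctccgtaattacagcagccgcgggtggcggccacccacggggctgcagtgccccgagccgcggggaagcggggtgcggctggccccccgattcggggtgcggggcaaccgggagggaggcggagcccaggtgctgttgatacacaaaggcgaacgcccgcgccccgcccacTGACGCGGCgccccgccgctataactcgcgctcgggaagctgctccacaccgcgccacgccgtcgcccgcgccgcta
Slc19a2: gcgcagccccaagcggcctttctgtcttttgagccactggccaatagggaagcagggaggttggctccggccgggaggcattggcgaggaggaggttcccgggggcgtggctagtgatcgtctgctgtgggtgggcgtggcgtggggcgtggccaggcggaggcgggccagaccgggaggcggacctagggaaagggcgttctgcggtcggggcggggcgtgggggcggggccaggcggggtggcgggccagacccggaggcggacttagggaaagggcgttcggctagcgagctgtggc
At least 1 window was found by symbol for 104 of the 133 members. A gene was counted for a pattern if any of its windows held it. Several windows were present for 4163 genes, which thus had more chances of a match. TGATGNAA was in 2 of these 104 (1.92%) and in 4.51% of all 27025 genes with a window, TGACNNNGC in 24 (23.1%) against 14%, and GAANNTTC in 5 (4.81%) against 9.04%. Of the 11 members at least 2-fold higher that have a window, 1 held TGATGNAA (Slc1a4), 4 held TGACNNNGC (Slc25a25, Slc38a2, Slc4a7 and Slc6a9) and 0 held GAANNTTC. Slc25a25 and Slc6a9 have several windows, not all of which held TGACNNNGC. Of the 13 at least 2-fold lower, 0 held TGATGNAA, 3 held TGACNNNGC (Slc13a3, Slc25a5 and Slc9a3r2) and 1 held GAANNTTC (Slc6a17). A match of letters is a description of the window and not a binding site.

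The deepest fall among all members was that of Slc38a3, which carries glutamine and is best known from astrocytes. It stood at 4.63, 5.70 and 4.63 after 24 h of 1 µM, with detection on 1 of the 3 arrays, at 7.28, 7.60 and 7.52 after 24 h of 0.1 µM, and at 7.04 (lowest), 7.27 (median) and 7.94 (highest) untreated. Every 1 µM array at 24 h was below every 0.1 µM and untreated array. The change was -0.22 ± 0.21 at 8 h (adjusted p = 0.431), -1.87 ± 0.21 at 15 h and -2.38 ± 0.21 at 24 h (adjusted p = 1.07e-07 and 2.54e-09). Slc7a4, a relative of the cationic amino acid transporters, was at 7.44, 7.59 and 7.47 after 24 h of 1 µM against 8.82 (lowest), 8.95 (median) and 9.18 (highest) untreated, a change of -1.49 ± 0.08 (adjusted p = 1.37e-12) that was already -0.52 ± 0.08 at 5 h. The neuronal glutamate and cysteine carrier Slc1a1 fell as well, by 0.91 ± 0.12 at 24 h. A second Slc1a1 probe, detected on all 24 arrays, gave -0.37 ± 0.11 at 24 h (adjusted p = 0.00898), and at 15 h it gave 0.25 (adjusted p = 0.0705) where the tested probe gave -0.43.

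Slc15a2, a peptide carrier of glia and choroid plexus, was at 7.44, 7.53 and 7.76 after 24 h of 1 µM, 9.25, 9.27 and 9.37 after 24 h of 0.1 µM and 9.32 (lowest), 9.52 (median) and 9.93 (highest) untreated. The 1 µM arrays were well below the rest. It changed by -0.76 ± 0.11 at 8 h, -1.84 ± 0.11 at 15 h and -2.001 ± 0.11 at 24 h (adjusted p = 1.72e-05, 1.25e-11 and 2.39e-12). Of the 8 astrocyte markers measured, 7 were lower and 1, Gja1, was higher at 24 h of 1 µM, and their summed linear level was 10072 to 10839 after 24 h of 1 µM against 12083 to 18226 untreated. Of the 9 oligodendrocyte lineage markers 7 were lower (4711 to 5164 against 11367 to 13955), and of the 7 neuronal markers 4 were lower and 2 higher (10853 to 11235 against 18359 to 21763). Of these lists 1 neuronal and 1 astrocyte marker were not measured and the oligodendrocyte list was complete. Fibroblast markers were largely not measured (2 of 6, both lower). The markers' part in the falls of Slc38a3, Slc15a2 and Slc25a18 was not tested.

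Of the 8 carriers of transmitters and osmolytes, 1 was higher and 5 were lower at 24 h of 1 µM, where 26.7% of all genes were higher and 30.7% lower. The 1 that rose was Slc6a9, the glycine transporter that sets glycine around NMDA receptors. It was at 11.59, 11.58 and 11.65 after 15 h of 1 µM and 9.89, 9.90 and 9.82 after 15 h of 0.1 µM, against 9.37 (lowest), 9.55 (median) and 10.20 (highest) untreated. The 1 µM arrays stood above every other array from 8 h on. It changed by 0.55 ± 0.13 at 5 h, 1.504 ± 0.13 at 8 h, 1.93 ± 0.13 at 15 h and 1.52 ± 0.13 at 24 h (adjusted p = 0.0108, 1.78e-08, 7.81e-11 and 3.1e-09). The 5 that fell at 24 h were the vesicular amino acid carrier Slc6a17 (-1.06 ± 0.18), the branched-chain amino acid carrier Slc6a15 (-0.88 ± 0.17), the proline transporter Slc6a7 (-0.78 ± 0.20), the taurine transporter Slc6a6 (-0.72 ± 0.09) and the creatine transporter Slc6a8 (-0.38 ± 0.08). Slc6a17 was at 8.50, 8.29 and 8.37 after 24 h of 1 µM against 9.03 (lowest), 9.27 (median) and 10.12 (highest) untreated, without overlap.

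Of the 8 members of the sugar carrier families, 1 was higher and 2 were lower at 24 h of 1 µM. Slc2a1, the widely expressed glucose transporter, was at 9.11, 9.13 and 9.19 after 5 h of 1 µM, 9.80, 9.89 and 9.72 after 8 h and 9.17, 9.14 and 9.17 after 24 h. Untreated arrays were at 7.40 (lowest), 7.77 (median) and 8.66 (highest), the 2 highest being arrays 5 and 6, and no 1 µM array overlapped them. The change was 1.25 ± 0.19 at 5 h, 1.91 ± 0.19 at 8 h, 1.36 ± 0.19 at 15 h and 1.26 ± 0.19 at 24 h (adjusted p = 0.000222, 9.33e-08, 3.19e-06 and 7.59e-06), and without arrays 5 and 6 it was 1.57 at 24 h. At 0.1 µM Slc2a1 gave 0.61 ± 0.19 at 15 h (adjusted p = 0.0331, -0.10 on slide 3) and -0.41 ± 0.19 at 24 h (adjusted p = 0.233). Slc2a3, the main neuronal glucose transporter, was higher at 5 h (0.69 ± 0.14) and 8 h (0.53 ± 0.14), with 0.14 ± 0.14 at 15 h and -0.15 ± 0.14 at 24 h.

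Both falling members of the class at 24 h are less studied glucose transporter relatives. Slc2a6 was at 7.14, 7.10 and 6.92 after 24 h of 1 µM and 8.65, 8.69 and 8.89 after 24 h of 0.1 µM, against 7.94 (lowest), 8.65 (median) and 9.17 (highest) untreated, a change of -1.55 ± 0.18 (adjusted p = 2.4e-07). The intracellular hexose carrier Slc2a8 was at 5.40, 5.44 and 5.48 after 24 h of 1 µM against 6.45 (lowest), 6.53 (median) and 6.84 (highest) untreated, a change of -1.14 ± 0.11 (adjusted p = 1.71e-08). For both genes the 1 µM and untreated arrays were apart at 24 h.

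**Figure D2:**
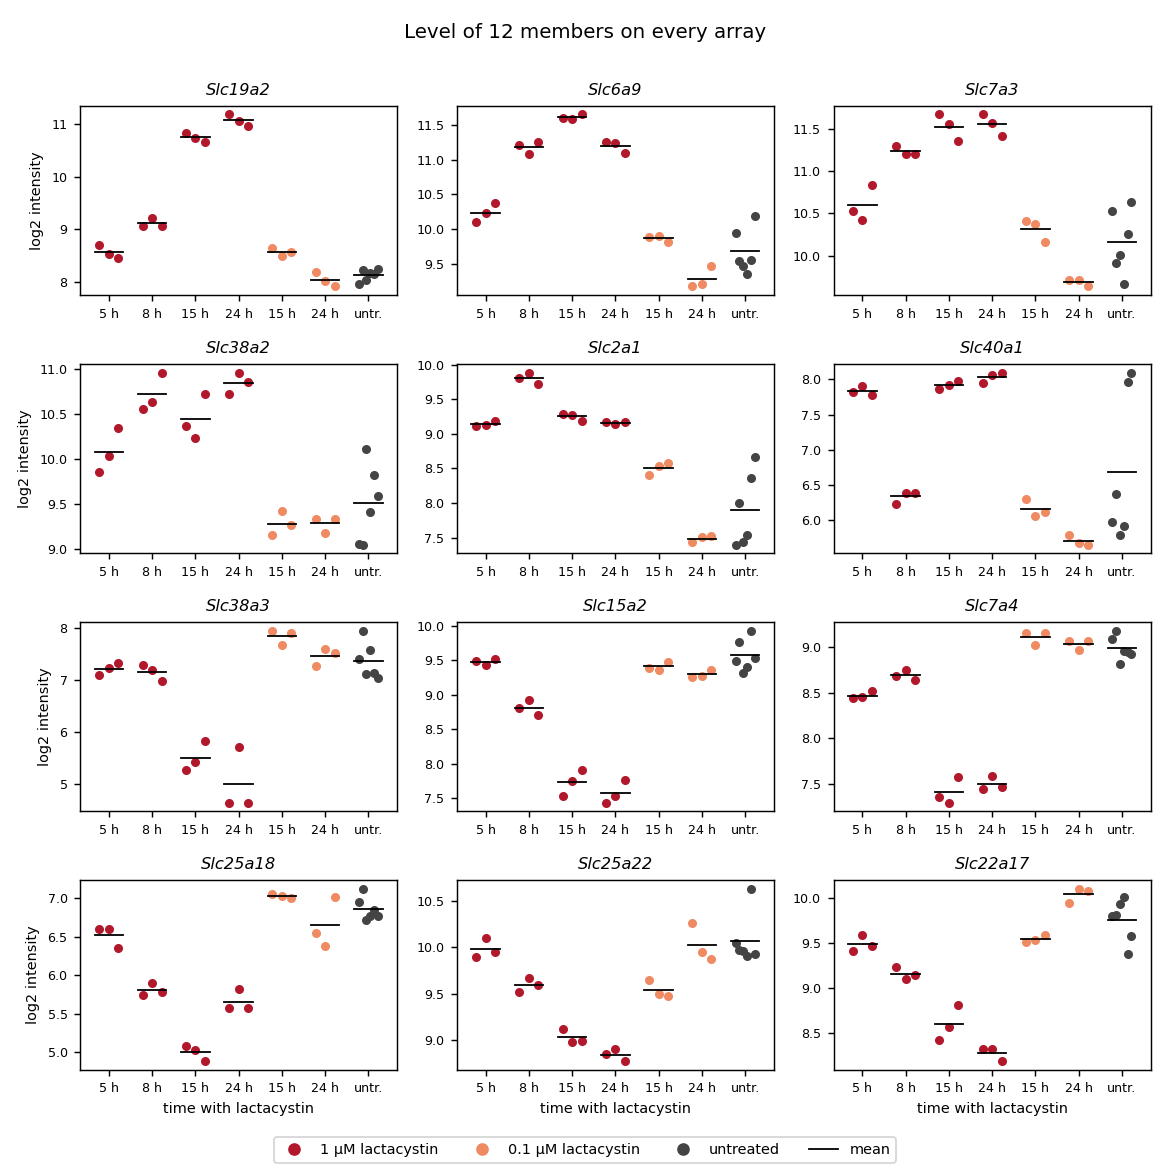
Log2 intensity (vertical axis, its own range in each panel) of 12 members on every array, at 1 µM for 5 to 24 h, at 0.1 µM for 15 and 24 h and untreated (horizontal axis), with points for arrays and lines for group means. After 24 h of 1 µM the 6 upper panels are higher than untreated and the 6 lower ones lower, and in the Slc40a1 panel untreated arrays 5 and 6 sit at 7.96 and 8.09, as high as the 1 µM arrays of 24 h.

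Of the 7 carriers of iron, copper, magnesium and haem, 2 were higher and 1 was lower at 24 h of 1 µM. Slc40a1 encodes ferroportin, the exporter of iron. It was at 7.96, 8.07 and 8.10 after 24 h of 1 µM and 5.78, 5.67 and 5.65 after 24 h of 0.1 µM, while the untreated arrays 1 to 6 gave 5.97, 6.37, 5.79, 5.92, 7.96 and 8.09. The 1 µM arrays were thus above 4 untreated arrays and level with the other two. The change was 1.15 ± 0.37 at 5 h, -0.35 ± 0.37 at 8 h, 1.24 ± 0.37 at 15 h and 1.36 ± 0.37 at 24 h (adjusted p = 0.0498, 0.485, 0.00702 and 0.00334). Within the slides the 24 h change was 1.90, 2.25 and -0.07, and without arrays 5 and 6 it was 2.03. Set against 0.1 µM, which does not involve the untreated arrays, Slc40a1 was higher by 2.34 ± 0.43 at 24 h (adjusted p = 7.62e-05), with 2.40, 2.45 and 2.17 on the 3 slides.

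Slc11a1, a metal ion transporter of the phagosomes of macrophages and microglia, gave different pictures with its probes. The brightest was at 11.46, 11.44 and 11.52 after 24 h of 1 µM and 8.58, 8.83 and 8.92 after 24 h of 0.1 µM, against 8.31 (lowest), 8.73 (median) and 8.97 (highest) untreated. That is a change of 1.64 ± 0.12 at 15 h and 2.76 ± 0.12 at 24 h (adjusted p = 3.13e-10 and 6.01e-14). A second probe assigned to the same RefSeq record, detected on all 24 arrays, lay between 5.16 and 5.59 after 24 h of 1 µM and between 5.28 and 5.68 untreated, a change of -0.13 (adjusted p = 0.316). Averaged over its kept probes the gene changed by 1.32 at 24 h. Of the 5 microglial markers measured, Cd68 and Cx3cr1 were higher at 24 h of 1 µM and Aif1, C1qa and C1qb lower, with a summed level of 499 to 615 against 184 to 281 untreated, and their part in the Slc11a1 result was not tested.

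Of the 11 zinc carriers, 5 were higher and 2 lower at 24 h of 1 µM. Slc39a4, an importer of zinc, was at 6.45, 6.44 and 6.51 after 24 h of 1 µM and 5.39, 5.54 and 5.31 after 24 h of 0.1 µM, against 4.73 (lowest), 5.05 (median) and 5.59 (highest) untreated, where 3 of 6 arrays detected it. It rose by 0.77 ± 0.14 at 15 h and 1.39 ± 0.14 at 24 h (adjusted p = 6.96e-05 and 2.06e-08), and without background correction by 0.88 at 24 h. Carriers of the endoplasmic reticulum and secretory pathway rose by less: Slc39a7 by 0.59 ± 0.10, Slc30a5 by 0.56 ± 0.09 and Slc30a7 by 0.51. The fifth of the higher ones, Slc39a6, gave 0.20 ± 0.08 (adjusted p = 0.0391), but 0.0090 in the authors' table and -0.026 with median centring, neither of which passed the test. The importer Slc39a10 was lower by 0.81 ± 0.23, with 6.08, 5.44 and 5.08 at 1 µM and 6.01 (lowest), 6.30 (median) and 6.85 (highest) untreated, which overlap. Slc30a1, the zinc exporter of the plasma membrane, did not pass the test at any time of 1 µM (-0.29 ± 0.16 at 24 h, adjusted p = 0.129).

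The mitochondrial carriers were the largest class, with 20 members tested, of which 4 were higher and 11 lower at 24 h of 1 µM. Their median change was -0.41, against -0.047 over all genes. The members that fell include the carriers of dicarboxylates, glutamate and adenine nucleotides. Slc25a10, the dicarboxylate carrier, was at 5.15, 4.92 and 5.11 after 15 h of 1 µM, detected on none of those arrays, against 6.68 (lowest), 6.93 (median) and 7.42 (highest) untreated, and was at least 3.62-fold lower (adjusted p = 2.9e-09). At 24 h its change was -1.62 ± 0.17. Slc25a18, a glutamate carrier found mainly in astrocytes, was at 5.09, 5.03 and 4.89 after 15 h, again detected on none, against 6.71 (lowest), 6.80 (median) and 7.12 (highest) untreated, and was at least 3.36-fold lower (adjusted p = 1.26e-11). These bounds set the untreated mean against the lowest level counted as detected on the treated arrays. By 24 h Slc25a18 was at 5.58, 5.82 and 5.57, a change of -1.20 ± 0.11.

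The neuronal glutamate carrier Slc25a22 was at 8.85, 8.91 and 8.78 after 24 h of 1 µM and 10.26, 9.95 and 9.87 after 24 h of 0.1 µM, against 9.91 (lowest), 9.96 (median) and 10.63 (highest) untreated. It fell by 1.23 ± 0.12 (adjusted p = 2.33e-08), with 1 µM arrays below all untreated ones. The adenine nucleotide translocases fell, with changes at 24 h of -0.76 ± 0.08 for Slc25a5 (-1.06 ± 0.08 at 15 h) and -0.68 ± 0.15 for Slc25a4. They are close paralogs, and how far their probes cross-react was not tested. Going the other way, the calcium-sensitive ATP-Mg/phosphate carriers Slc25a25 and Slc25a24 rose. Slc25a25 was at 8.70, 8.80 and 8.56 after 24 h of 1 µM and 7.27, 7.31 and 7.43 after 24 h of 0.1 µM, against 7.14 (lowest), 7.44 (median) and 7.84 (highest) untreated, and rose by 0.63 ± 0.11 at 5 h, 0.87 ± 0.11 at 8 h, 1.11 ± 0.11 at 15 h and 1.23 ± 0.11 at 24 h. None of these groups at 1 µM overlapped the untreated arrays. Slc25a24 rose by 0.76 ± 0.16 at 24 h, and the S-adenosylmethionine carrier Slc25a26 by 0.55 ± 0.10.

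Carriers of ions also moved both ways. Of the 12 cation-chloride and bicarbonate carriers, 4 were higher and 7 lower at 24 h of 1 µM. Slc12a8 was at 7.03, 7.27 and 7.34 after 15 h of 1 µM against 5.03 (lowest), 5.31 (median) and 5.67 (highest) untreated, a rise of 1.89 ± 0.13 (adjusted p = 3.76e-11) that was 1.14 ± 0.13 at 24 h. The sodium bicarbonate cotransporter Slc4a7 was at 10.32, 10.38 and 10.26 after 24 h of 1 µM against 8.95 (lowest), 9.25 (median) and 9.45 (highest) untreated, a rise of 1.103 ± 0.12 (adjusted p = 1.06e-07) without overlap. Also higher at 24 h were the potassium chloride cotransporter Slc12a4 (1.02 ± 0.21, detected on 3 of 6 untreated arrays) and Slc12a2, the chloride loader of immature neurons (0.38 ± 0.10). Slc12a2 kept its sign but not its call with median centring (0.21) and in the authors' table (0.24). The anion exchangers Slc4a3 (-0.87 ± 0.12) and Slc26a6 (-0.75 ± 0.14) and the family member Slc12a9 (-0.68 ± 0.12) were the deepest falls. Of Slc4a3, 2 dimmer probes gave 0.10 and -0.11, both short of the threshold.

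Of the 9 sodium, calcium and proton exchangers, 2 were higher and 4 lower at 24 h of 1 µM. Calcium exchangers made up the falls, led by Slc8a2, which was at 5.46, 5.16 and 5.19 after 24 h of 1 µM, 6.77, 6.43 and 6.77 after 24 h of 0.1 µM and 5.67 (lowest), 6.25 (median) and 6.63 (highest) untreated. Its change was -0.93 ± 0.17 (adjusted p = 5.41e-05). Slc8a1 changed by -0.74 ± 0.11 and the mitochondrial exchanger Slc8b1 by -0.56 ± 0.12, and the potassium-dependent exchanger Slc24a4, detected on none of the 3 arrays at 24 h of 1 µM and on 3 of 6 untreated ones, was at least 1.05-fold lower (adjusted p = 0.0053, limma). The 2 that rose are proton exchangers of intracellular membranes, Slc9a8 of the Golgi (0.67 ± 0.14, after 1.18 ± 0.14 at 15 h) and Slc9a9 of endosomes (0.75 ± 0.26, a call lost without 1 µM array 1 or 3 and, at 0.64, without untreated arrays 5 and 6). At 24 h the other 2 probes of Slc9a8 gave 1.24 and 0.80, after 1.119 and 1.102 at 15 h, and neither passed the test between those times.

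**Figure D3:**
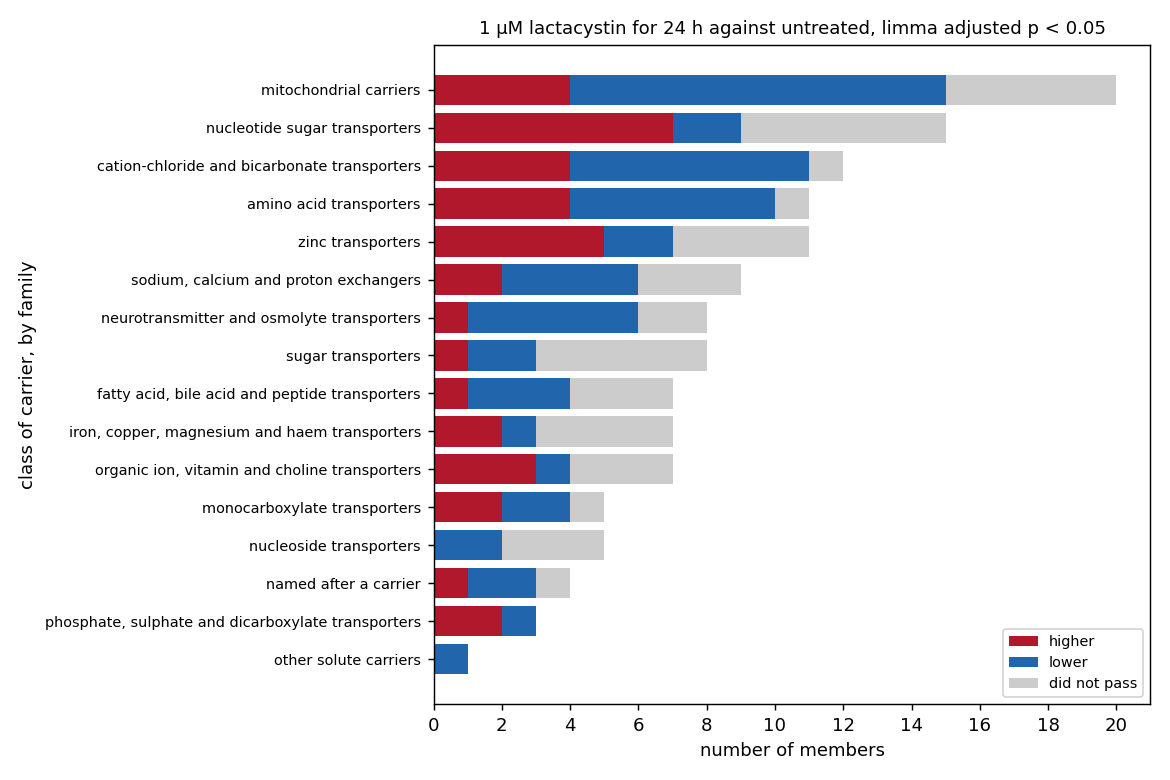
Number of members (horizontal axis) in each class of carrier (vertical axis) that were higher (red), lower (blue) or did not pass the test (grey) after 24 h of 1 µM lactacystin against untreated. Mitochondrial carriers have 4 higher and 11 lower of 20, and the nucleotide sugar class 7 higher and 2 lower of 15. Slc35b1 is counted as higher by its brightest probe, against its other probes.

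The nucleotide sugar class, the SLC35 family that mostly feeds glycosylation in the endoplasmic reticulum and Golgi, had 7 members higher and 2 lower of 15 at 24 h of 1 µM. The 3 with the largest rises were Slc35b3, which carries the sulphate donor PAPS (0.88 ± 0.09), Slc35a3 (0.78 ± 0.11) and Slc35d1 (0.61 ± 0.13). Slc35f1 (-0.98 ± 0.16) and Slc35a5 (-0.86 ± 0.12) were lower. A second probe of Slc35b3 rose too, by 1.07. Slc35b1 had probes that passed the test in opposite directions, so it is higher or lower depending on the probe. The brightest, which the table lists under the older symbol Ugalt2, gave 0.54, and the others gave -0.44 and -0.35. Slc35b1 stands among the 7 higher members, and in the counts of all members, by its brightest probe. Slc35c2, also among the 7 (0.38), had another probe at -0.13 that did not pass (limma adjusted p = 0.520). Slc35a1 did not pass by its tested probe (-0.06), while its second probe gave 0.47 (limma adjusted p = 0.0034).

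The plot of single probes shows the levels behind 3 such disagreements.

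**Figure D4:**
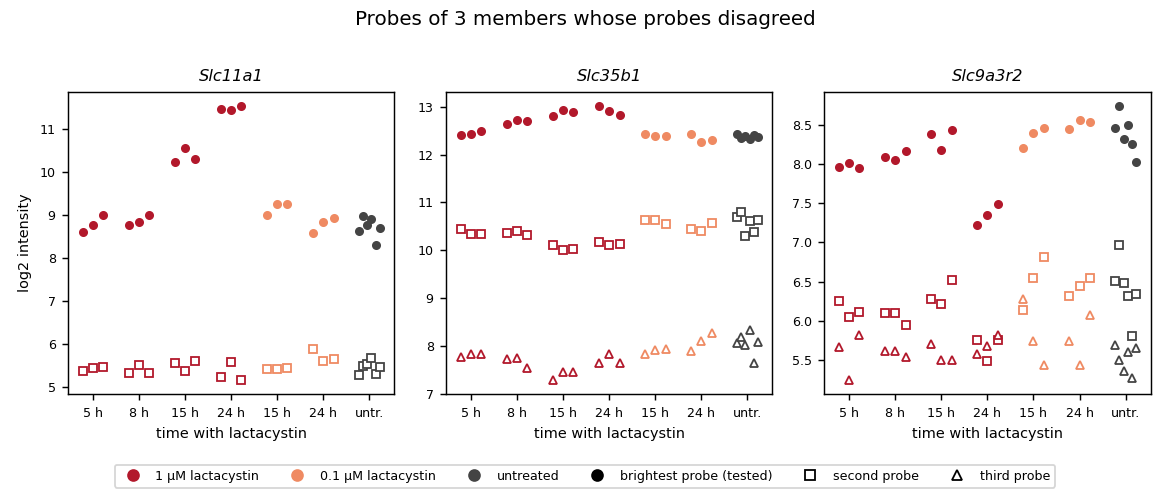
Log2 intensity (vertical axis) of every kept probe of Slc11a1, Slc35b1 and Slc9a3r2 on each array, by treatment and time (horizontal axis), with filled circles for the tested, brightest probe and open squares and triangles for the others. The brightest Slc11a1 probe lies between 11.44 and 11.52 after 24 h of 1 µM and between 8.31 and 8.97 untreated, while the second stays between 5.16 and 5.88 in every group.

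The remaining classes are small. Of 5 monocarboxylate carriers 2 were higher and 2 lower at 24 h of 1 µM. Slc16a13 was lower (-1.05 ± 0.15), while Slc16a6 rose by 1.099 ± 0.23 and Slc16a9 by 0.41 ± 0.12. The lactate exporter Slc16a3 gave -0.04 ± 0.12 (adjusted p = 0.815). Of 5 nucleoside carriers, the monoamine carrier Slc29a4 (-0.79 ± 0.09) and Slc29a2 (-0.39 ± 0.12, a call lost without 1 µM array 1) were lower.

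The dicarboxylate carrier Slc13a3 was at 5.01, 4.91 and 4.76 after 24 h of 1 µM, detected on none of those arrays, at 6.46, 6.72 and 6.58 after 24 h of 0.1 µM, and at 5.52 (lowest), 6.19 (median) and 6.45 (highest) untreated. It was at least 2.14-fold lower at 1 µM than untreated (adjusted p = 3.12e-07). The phosphate carriers of its class, Slc20a1 (0.80 ± 0.26, a call lost without 1 µM array 1) and Slc20a2 (0.43 ± 0.10), were higher. Among fatty acid, bile acid and peptide carriers 1 of 7 was higher (Slc27a2, 0.28 ± 0.11) and 3 were lower, including Slc15a2 and the fatty acid carrier Slc27a4 (-0.74 ± 0.11). The urea carrier Slc14a2, detected on none of the 24 h arrays at 1 µM, was at least 1.40-fold lower. Of the proteins named after a carrier, the scaffold Slc9a3r1 was at 7.31, 7.36 and 7.55 after 24 h of 1 µM against 8.64 (lowest), 8.92 (median) and 9.27 (highest) untreated, a change of -1.53 ± 0.11 (adjusted p = 1.55e-10), where 8 h had given -0.11 ± 0.11 (adjusted p = 0.479). Slc9a3r2 was lower by less (-1.03 ± 0.11), and its other 2 probes gave -0.74 and 0.18.

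Other transport genes, listed for this account with earlier results known, moved as follows at 24 h of 1 µM. Of the 8 carriers left out of the members by name, 3 were higher (Slc3a2 with 1.41, Slc7a5 with 0.84, and Slc7a11, which no untreated array detected) and 4 were lower (Slc17a7, Slc4a4, Slc32a1 and Slc1a3, with -1.70, -1.33, -1.30 and -0.48). Slc3a2 is the heavy chain that Slc7a6 and Slc7a8 also bind, and both of these were lower (-0.56 ± 0.16 for Slc7a6 and -0.70 ± 0.12 for Slc7a8, with 0.11 from another probe of the second). Of 10 subunits of the sodium-potassium ATPase, whose gradient drives many carriers, 5 were lower, among them the glial subunit Atp1b2 (-2.25). Of 14 measured transport genes without an Slc symbol 2 were higher and 7 lower, and of 13 measured partners and regulators of carriers 5 were higher and 3 lower, the lower ones including the transferrin receptor Tfrc (-1.12, and -2.03 at 15 h).

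Steps within 1 µM were tested directly. Between 8 and 15 h 52 members changed (25 higher and 27 lower at 15 h; 33.1% of all genes, 15.2% higher and 17.8% lower), with 16 higher and 32 lower after median centring and 19 higher and 32 lower in the authors' table. Slc19a2 rose by 1.64 ± 0.10 and Slc40a1 by 1.59 ± 0.43 in this step, while Slc9a3r1 (-1.66 ± 0.13) and Slc38a3 (-1.65 ± 0.24) fell. Between 15 and 24 h 24 members changed (7 higher and 17 lower at 24 h; 11.7% of all genes, 5.6% higher and 6.11% lower), with 3 higher and 13 lower after median centring. The brightest Slc11a1 probe rose by a further 1.12 ± 0.14, Slc25a18, not detected at 15 h, was at least 1.46-fold higher and Slc9a3r2 fell (-0.98 ± 0.13), of which the first and last rest on probes that disagree. The 15 h group stands in both steps, so the lists are not independent.

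With 0.1 µM, 22 members differed from untreated at 15 h (10 higher, 12 lower; 16.6% of all genes, 8.54% higher and 8.01% lower). The split was 5 higher and 20 lower with median centring and 7 higher and 18 lower in the authors' table, and the count was 5 when only the 2 groups compared were fitted and 35 with array weights. Slc39a4 was the largest rise, with 5.78, 5.92 and 5.90 at 0.1 µM and 5.95, 5.79 and 5.78 at 1 µM for 15 h, against 4.73 to 5.59 untreated, so that both doses gave about the same level at that time (0.79 ± 0.14 and 0.77 ± 0.14). Slc35f3 (0.64 ± 0.18), Slc2a1 (0.61 ± 0.19), Slc25a26 (0.57 ± 0.10) and Slc8b1 (0.53 ± 0.12) followed. Slc25a29, a mitochondrial carrier of basic amino acids, was lower (-0.70 ± 0.10), as were Slc25a22 (-0.53 ± 0.12) and Slc35a5 (-0.53 ± 0.12). The peroxisomal carrier Slc25a17 was lower by -0.73 ± 0.24 (adjusted p = 0.0439), a call lost without any 1 array of its own group or untreated array 1, 3, 5 or 6, with -0.47 without both arrays 5 and 6.

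At 24 h of 0.1 µM, limma called 0 members higher and 2 lower (2.24% of all genes were called, 0.698% higher and 1.54% lower). These were Slc27a2 (detected on none of these arrays and at least 1.21-fold lower, adjusted p = 0.0452) and Slc36a4 (-0.39 ± 0.09, adjusted p = 0.0329). An unadjusted limma p under 0.05 was found for 33 members, and the share of all genes at that threshold is not given. Slc36a4, an amino acid carrier of lysosomes, was at 6.06, 6.29 and 5.96 against 6.34 (lowest), 6.53 (median) and 6.67 (highest) untreated. The count was 28, all lower, with median centring, which shifted the median of all genes by -0.176, and 30 (1 higher, 29 lower) in the authors' table, which shifted it by -0.101. It was 7 with slide as a block and 1 without untreated arrays 5 and 6. Leaving out 1 array at a time gave counts from 0 to 13. Between 15 and 24 h of 0.1 µM 24 members changed (11 higher and 13 lower at 24 h; 11.7% of all genes, 4.55% higher and 7.17% lower; 4 and 12 with median centring, 5 and 14 in the authors' table), among them Slc2a1 (-1.02 ± 0.22) and Slc13a3 (0.89 ± 0.17).

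The doses were compared with each other without the untreated arrays. At 15 h 80 members differed (44 higher and 36 lower at 1 µM; 51.4% of all genes, 26% higher and 25.4% lower) and at 24 h 91 (46 higher and 45 lower; 53.7% of all genes, 26.7% higher and 27% lower). The largest differences at 24 h were those of Slc19a2 (3.03 ± 0.10), Slc11a1 (2.70 ± 0.14, brightest probe), Slc40a1 (2.34 ± 0.43) and Slc6a9 (1.91 ± 0.15) upward and of Slc38a3 (-2.48 ± 0.24), Slc22a17 (-1.75 ± 0.13), Slc15a2 (-1.72 ± 0.13) and Slc2a6 (-1.69 ± 0.21) downward. For each of these 8 the 3 arrays at 1 µM did not overlap the 3 at 0.1 µM. That held for 89 of the 91 members called at 24 h. The share over all genes is not given, so this count is no result particular to the members. The second probe of Slc11a1 was called the other way in this comparison (-0.39 ± 0.12, adjusted p = 0.00877).

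Whether the difference between doses changed from 15 to 24 h was tested as an interaction, in which 32 members passed (14 positive, 18 negative; 16.8% of all genes, 9.17% and 7.63%), 21 in the authors' table and 17 with median centring. Slc39a4 (1.08 ± 0.23, adjusted p = 0.00239) differed between 1 and 0.1 µM by -0.02 at 15 h and by 1.05 at 24 h. Slc25a18 (1.04 ± 0.19, adjusted p = 0.000687) differed by -2.02 at 15 h and -0.99 at 24 h, and the Slc11a1 probe (1.51 ± 0.20, adjusted p = 4.24e-05) by 1.19 and 2.70. On the negative side Slc39a10 (-1.33 ± 0.37, adjusted p = 0.0153) differed by 0.02 at 15 h and -1.31 at 24 h, Slc9a3r2 (-1.14 ± 0.18, adjusted p = 0.000247) by -0.03 and -1.16, and Slc13a3 (-1.13 ± 0.23, adjusted p = 0.00223) by -0.57 and -1.69. At 1 µM no array detected Slc25a18 at 15 h or Slc13a3 at 24 h, where they were at least 3.77-fold and at least 3.02-fold lower than at 0.1 µM, so the sizes of these 2 interactions rest on signal not above background. Slc39a10 lost its call with median centring, in the authors' table and without 1 array (1 µM 24 h replicate 3, where the interaction was -1.11). Averaged over kept probes, the interaction was 0.52 for Slc11a1 and -0.52 for Slc9a3r2.

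**Figure D5:**
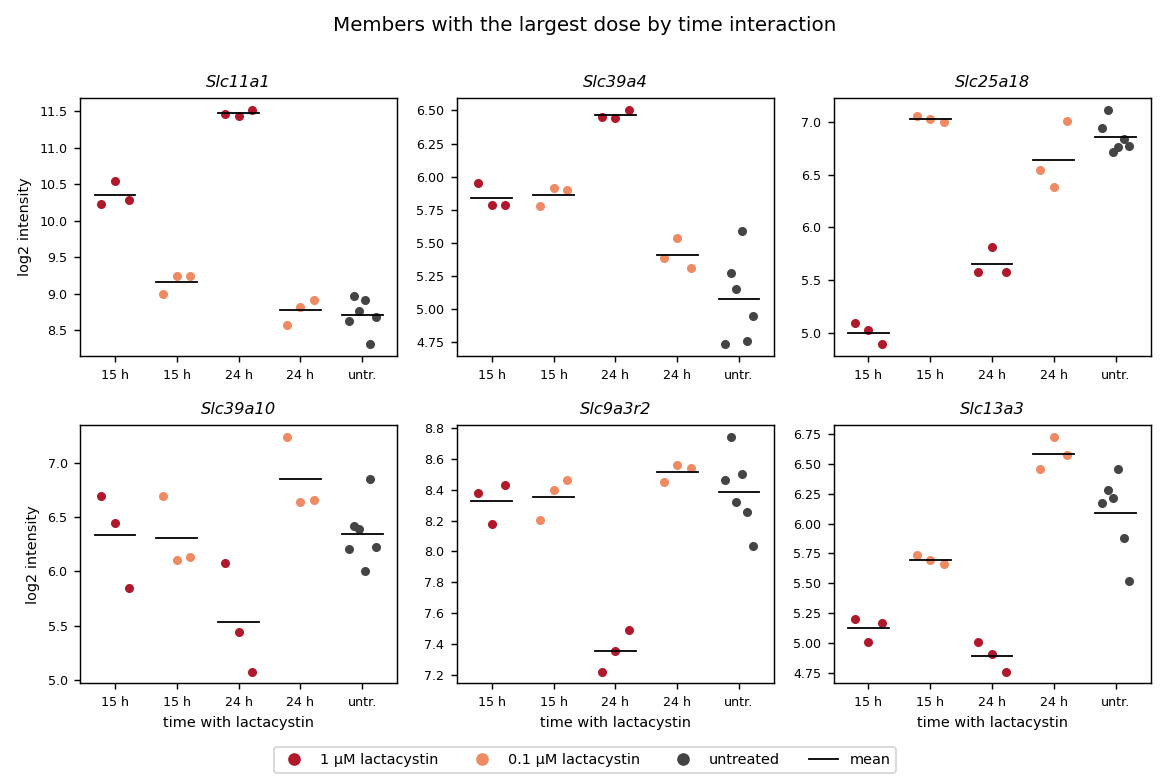
Log2 intensity (vertical axis) of the 3 members with the largest positive and the 3 with the largest negative dose by time interaction on every array at 1 µM and 0.1 µM for 15 and 24 h and untreated (horizontal axis), with lines for group means. For Slc39a4 the doses coincide at 15 h and are apart at 24 h, and for Slc13a3 the 0.1 µM arrays of 24 h, at 6.46 to 6.72, reach above the highest untreated array at 6.45.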

How the data were processed

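Single-colour Illumina MouseRef-8 bead arrays were made from 24 samples. The deposited signal table holds bead intensities per probe that the authors had not normalized. A second deposited table holds the ratio of each signal, divided by its array's median, to the mean of the untreated arrays, which the values bear out. A gene profile written by BeadStudio, per the file header, gives a detection score per gene and array, a fraction between 0 and 1 that the authors deposited. Gene symbols are the table's own, updated through RefSeq accessions (143 of 152 member probes matched).

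Detection of a probe was read from the curve of score against signal on the same array. Signals were background-corrected (normexp with detection p-values, offset 16), quantile normalized and put on a log2 scale in limma 3.58.1 (R 4.3.3). The filter asked for a detection p under 0.01 on at least 3 arrays (13556 probes), each gene was read from its brightest probe (10894 genes), and 7 group means were fitted with no block. Adjusted p-values are Benjamini-Hochberg values within a comparison. With 3 arrays a group the number of arrays limits the precision. At-least folds set the brighter group's mean against the lowest detected signal on the dim arrays. The fit was tested on simulated data.

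Treated replicates 1, 2 and 3 match scanner arrays of slides 3, 1 and 2 (99.9% of 14487 genes), so slides were taken from the matching arrays. Arrays of a slide deviated together with a median correlation of 0.252 (lowest of 81 pairs -0.074), and by replicate label of 0.061, so the replicate numbers were not taken to pair the samples.

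Members, classes, lists and the rule for named genes were chosen with earlier results of these data known. Named were the largest rises and falls of each comparison, up to 3 called members each way per class at 24 h, the 3 largest interactions each way and a list of well-known carriers. Slc6a8, Slc7a6, Slc7a6os, Slc7a8, Slc22a5, Slc24a4, Slc30a7, Slc35a1, Slc35b1 and Slc35c2, and the genes beside the signal threshold, were named after their values were seen. Alternatives changed the normalization, background correction, filter, probe rule, table, slide block, array weights, arrays fitted and single arrays. Results for some genes are not reported here.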

Additional observations from a re-analysis of the deposited data

Results flagged for a closer look

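Among the 79 named members, 4 had an untreated array far from the others, where chance gives about 1 in 20 groups. Untreated array 5 was the highest for Slc22a21 (5.19, the next 4.70), for Slc25a22 (10.63, the next 10.05) and for Slc25a4 (8.31, the next 7.89). Untreated array 2 was the highest for Slc25a5 (13.02, the next 12.77).

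The difference between 1 and 0.1 µM changed from 15 to 24 h, by limma's interaction test, for 6 members singled out by size. It was positive for the brightest Slc11a1 probe (1.51, adjusted p = 4.24e-05), Slc39a4 (1.08, adjusted p = 0.00239) and Slc25a18 (1.04, adjusted p = 0.000687). It was negative for Slc39a10 (-1.33, adjusted p = 0.0153), Slc9a3r2 (-1.14, adjusted p = 0.000247) and Slc13a3 (-1.13, adjusted p = 0.00223). At 1 µM, Slc25a18 was detected on none of the 15 h arrays and Slc13a3 on none of the 24 h arrays, so the sizes of these 2 interactions rest on signal not above background. The second Slc11a1 probe gave -0.47 (adjusted p = 0.0633).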

How the results depend on the processing

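Over 135 results on named members, 4719 values under an alternative kept their side of the threshold. Those past the threshold also kept their direction, while a change of sign short of it on both sides was not counted. Another 139 kept the direction only, and 1 passed the threshold newly (Slc30a1 at 24 h of 1 µM, -0.37 without untreated array 4). Of the results past the threshold 1 changed sign (Slc39a6 at 24 h of 1 µM, -0.026 with median centring). Counts of called members moved as follows. At 5 h of 1 µM (15) they were 37 with array weights, 2 with only the groups compared, 26 with slide as a replicate block, 35 without untreated arrays 5 and 6, and 7 to 28 leaving out 1 array. At 8 h (64) the count was 40 with only the groups compared. At 15 h of 0.1 µM (22) it was 35 with array weights, 5 with only the groups compared and 16 to 29 leaving out 1 array. At 24 h of 0.1 µM (2) it was 6 with array weights, 30 in the authors' table, 28 with median centring, 1 each without background correction, without the detection filter and without untreated arrays 5 and 6, 0 with only the groups compared, 5 and 7 with the replicate block by label and by slide, and 0 to 13 leaving out 1 array. Array weights gave 47 for 24 against 15 h at either dose (24 each; 12 to 29 and 15 to 31 leaving out 1 array) and 50 for the interaction (32), which was 21 in the authors' table, 17 with median centring and 23 to 36 leaving out 1 array. The replicate block moved no other count by over 1.5 times.

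Median centring shifted the median of all genes by -0.101 at 24 h of 1 µM, -0.112 and -0.176 at 15 and 24 h of 0.1 µM and -0.105 between 8 and 15 h of 1 µM, and the authors' table shifted it by -0.101 at 24 h of 0.1 µM. Dim members changed less without background correction. Averaged over kept probes, the 24 h changes of Slc11a1, Slc38a2, Slc7a3, Slc9a3r2 and Slc4a3 were 1.32, 0.78, 0.80, -0.53 and -0.29. The cause of these differences was not tested.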
